A study of Mus musculus with 10 samples.

Results

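The B cell identity genes Ms4a1, Cd79a, Cd79b, Cr2, Fcer2a, Pax5, Cd22, Ebf1 and Spib are 9 genes picked by name, out of 33585 measured genes, because B cells use them to build, tune and maintain the antigen receptor programme. They were followed in the tumor-draining lymph nodes (TDLNs) of 10 BALB/c mice aged 6 weeks with 4T1 tumors, which grow from cells of a mouse mammary carcinoma cell line transplanted into the strain it came from. In both groups the tumor was treated by microwave ablation (MWA) on day 10 and the nodes were taken on day 15, with 1 library per mouse. The 5 mice of the MWA group received PBS, and the 5 mice of the MWA+2DG group received 2-deoxy-D-glucose (2DG), a glucose analogue that inhibits glycolysis, at 500 mg/kg every 2 days. The drug acted on the whole animal, whole nodes and not sorted B cells were sequenced, and no node without ablation was analysed here. Values are FPKM (fragment counts scaled to the length of the transcript and to the mapped reads of the library), which can be compared between genes because of the length scaling.

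A mature B cell reads antigen through a surface immunoglobulin whose signal leaves the membrane through the Cd79a and Cd79b chains. The complement receptor Cr2 lowers the threshold of that signal, Cd22 restrains it, and Ms4a1 (CD20) and Fcer2a (CD23, the low-affinity IgE receptor) are further surface proteins of the resting follicular B cell. Ebf1 and Pax5 are the transcription factors that commit progenitors to the B lineage and keep them there, and Spib is an Ets factor that works with its relative PU.1 in receptor signalling. In a lymph node most such cells sit in follicles, on a meshwork of follicular dendritic cells that also carry Cr2 and Fcer2a. Ebf1 is also made by stromal cells and Spib by plasmacytoid dendritic cells. In the files the members carry the Ensembl identifiers ENSMUSG00000024673 (Ms4a1), ENSMUSG00000003379 (Cd79a), ENSMUSG00000040592 (Cd79b), ENSMUSG00000026616 (Cr2), ENSMUSG00000005540 (Fcer2a), ENSMUSG00000014030 (Pax5), ENSMUSG00000030577 (Cd22), ENSMUSG00000057098 (Ebf1) and ENSMUSG00000008193 (Spib).

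The upstream sequences of 4 of these genes are shown because they are the start regions of the most abundant member (Cd79a), of the member whose values split by replicate set (Cr2) and of both members with a match to the core letters of an EBF site (Cd22 and Spib). They come from RefSeq promoters of the GRCm38.p6 build, which differs from the mm9 build that the submitters' processing notes name. RefSeq promoters were found for 7 of the 9 members, 10 promoters in all. Each run is the 250 bases before the start site, 5′ to 3′ on the strand of the gene, and capitals mark the match.
Cd22 (GRCm38.p6, chr7:30879029-30879278, minus strand): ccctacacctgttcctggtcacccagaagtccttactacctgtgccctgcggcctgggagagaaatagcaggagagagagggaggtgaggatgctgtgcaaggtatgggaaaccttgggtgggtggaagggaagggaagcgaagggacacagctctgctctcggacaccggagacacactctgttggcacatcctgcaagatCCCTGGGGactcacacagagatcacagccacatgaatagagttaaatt
Spib (GRCm38.p6, chr7:44532072-44532321, minus strand): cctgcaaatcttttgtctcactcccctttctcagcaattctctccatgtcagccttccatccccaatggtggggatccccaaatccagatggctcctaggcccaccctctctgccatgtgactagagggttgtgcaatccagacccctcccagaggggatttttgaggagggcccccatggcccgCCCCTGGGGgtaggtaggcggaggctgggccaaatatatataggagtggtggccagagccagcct
Cd79a (GRCm38.p6, chr7:24897247-24897496, plus strand): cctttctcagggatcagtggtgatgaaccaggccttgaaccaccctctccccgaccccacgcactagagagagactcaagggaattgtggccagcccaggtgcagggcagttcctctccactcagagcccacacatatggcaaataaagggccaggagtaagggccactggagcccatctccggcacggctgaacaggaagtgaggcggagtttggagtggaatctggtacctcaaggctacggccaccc
Cr2 (GRCm38.p6, chr1:195176720-195176969, minus strand): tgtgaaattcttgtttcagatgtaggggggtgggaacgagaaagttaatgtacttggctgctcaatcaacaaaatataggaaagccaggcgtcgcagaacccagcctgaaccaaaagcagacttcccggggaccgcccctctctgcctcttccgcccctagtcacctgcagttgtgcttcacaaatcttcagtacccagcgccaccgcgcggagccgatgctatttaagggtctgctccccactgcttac
The letters searched on both strands were CCCNNGGG (EBF), ATGCAAAT (the octamer read by Oct proteins and their B cell partner Pou2af1) and GAGGAAGT (PU.1 and Spi-B). Only exact matches were marked, so an unmarked run, such as that of Cd79a, can still hold a site with other letters. The EBF letters stood in 2 of the 10 member promoters and in 11.8% of all 32851 mouse promoters of that length. In Cd22 the match lay 48 to 41 bases before the start, and in Spib 2 overlapping matches lay 65 to 58 and 64 to 57 bases before it. The octamer stood in 1.6% of all promoters and the PU.1/Spi-B letters in 2.44%, and neither was in these 10 windows.

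All 9 genes were expressed in every node. The antigen receptor chains stood highest. The mean FPKM over the 10 mice was 495 for Cd79a and 445 for Cd79b, and Cd79a exceeded Cd79b in 9 of the 10 mice. Next, 3 members lay close together, with means of 135 for Cd22, 130.4 for Spib and 126 for Fcer2a. Cd22 exceeded Spib in 6 mice and Spib exceeded Fcer2a in 5 mice, so these neighbours were not separated beyond the spread between mice. Ms4a1 followed at 97.9 and was below Fcer2a in 8 mice. Cr2 at 55.8, Pax5 at 32.2 and Ebf1 at 6.43 closed the order, each lower than the one before it in all 10 mice. The lineage factors Pax5 and Ebf1 were the least abundant transcripts of the list on the FPKM scale.

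**Figure D1:**
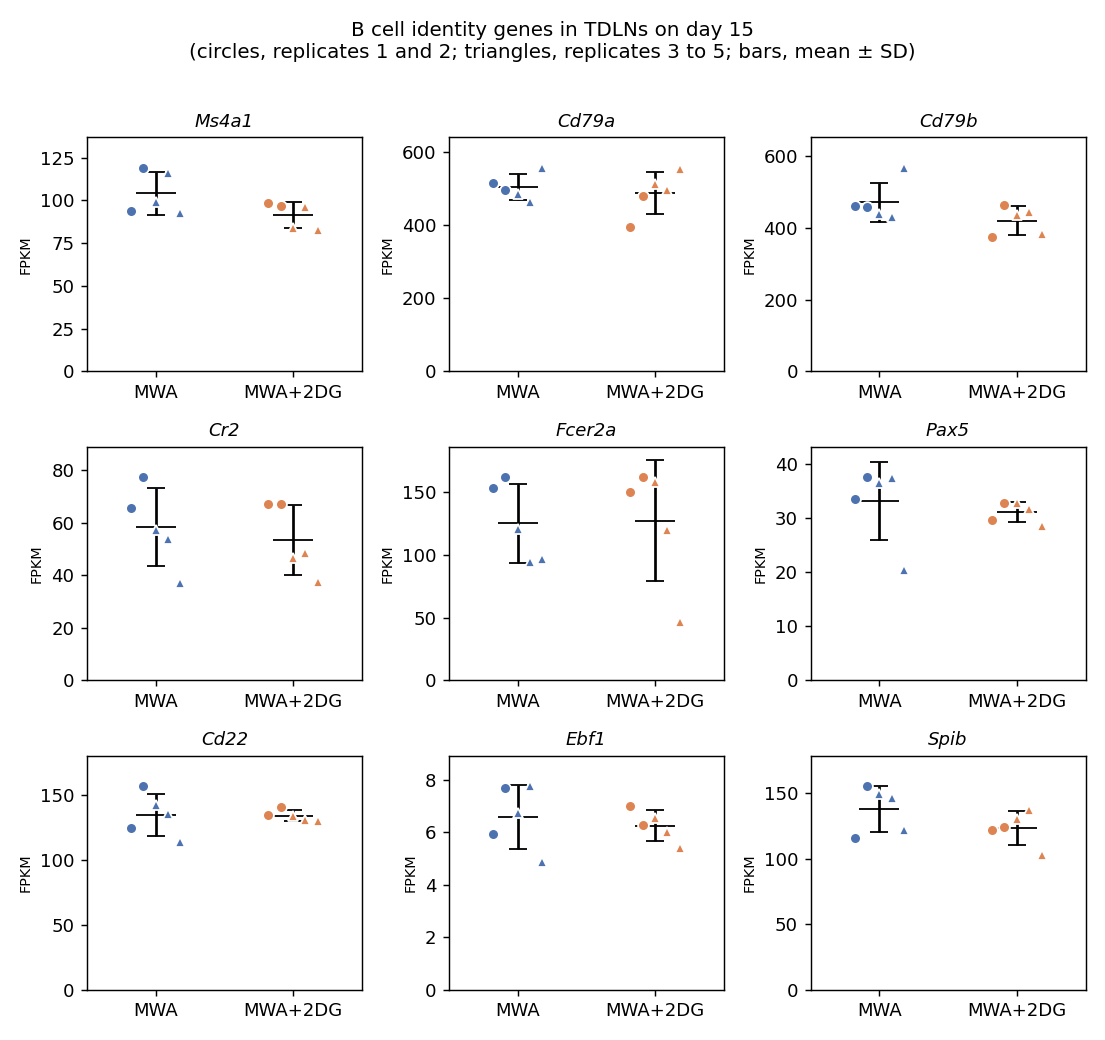
FPKM (y axis, linear from 0) of each B cell identity gene in the 5 MWA and 5 MWA+2DG libraries, with the mean ± SD of each group. The points of the groups overlap for all 9 genes, and Fcer2a in the MWA+2DG group spans 46.2 to 162 FPKM.

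The question of the comparison is whether inhibiting glycolysis after ablation changed the B cell programme of the draining node by day 15. None of the 9 genes passed any call between the groups. All 9 log2 fold changes (MWA+2DG minus MWA, on log2(FPKM + 1)) were below 0, between -0.18 and -0.0014 with a median of -0.07, and Cd79a, Pax5, Cd22 and Ebf1 turned above 0 when libraries were rescaled to 1 total, as Cd79a, Fcer2a and Cd22 did under quantile normalization. Over all 13334 tested genes the median was 0.01 and 47.4% were below 0. No tested gene passed an adjusted p of 0.05 in limma (0%), and the smallest adjusted p was 0.995, with 567 genes and 0 members at an unadjusted P below 0.05. By the rule that the study used, an unadjusted P below 0.05 with a log2 fold change beyond 0.25, 1.87% of tested genes were lower, 0.952% were higher and none of the members was either. Groups did not overlap, with the MWA+2DG group lower, for 0.51% of tested genes and for no member. In whole nodes, fewer B cells and less of a transcript per B cell cannot be told apart.

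Among the signal chains of the receptor, Cd79a measured 516, 495, 484, 463 and 556 FPKM in the 5 MWA mice and 395, 480.3, 513, 495 and 553 FPKM in the 5 MWA+2DG mice. The only clear departure was the MWA+2DG replicate 1, below all others, and the remaining values interleaved. The log2 fold change was -0.05 ± 0.10 (SE, 95% interval -0.26 to 0.16, two-sided exact permutation test, p = 0.619), and without that mouse it was 0.02. Its partner Cd79b measured 460.5, 459, 439, 429 and 567 FPKM in the MWA group and 373, 463, 437, 445 and 382 FPKM in the MWA+2DG group. All 5 MWA+2DG values were below the MWA mean, but 3 of them lay within the MWA range. The log2 fold change of -0.16 ± 0.10 did not pass the test (95% interval -0.38 to 0.05, exact permutation p = 0.159).

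Of the other surface proteins, Ms4a1, the target of therapeutic CD20 antibodies, had the lowest fold change of the list. Its FPKM was 94, 119, 99.2, 116 and 92.7 in the MWA mice and 98.5, 96.8, 84, 96 and 82.5 in the MWA+2DG mice. The MWA+2DG values all lay below the MWA mean of 104 ± 12.6 (SD, n = 5), and 3 of the 5 remained inside the MWA range. The log2 fold change was -0.18 ± 0.10 (95% interval -0.39 to 0.03, limma P = 0.0847, exact permutation p = 0.127), so the data allow a change from -23.8% to 2.06% on the scale of FPKM + 1. In limma the unadjusted P of Ms4a1 was 0.0349 under median ratio scaling (adjusted p = 0.919), 0.0496 with the replicate block (adjusted p = 0.842) and 0.0445 without MWA replicate 5 (adjusted p = 1.0), with log2 fold changes of -0.22 to -0.18 that are short of the rule. The inhibitory receptor Cd22 was the steadiest member between groups, at 135 ± 16.5 FPKM in the MWA group and 134 ± 4.24 FPKM in the MWA+2DG group (SD, n = 5 each). Its log2 fold change was -0.0014, with a 95% interval of -0.19 to 0.19 (exact permutation p = 1.0), and its sign changed with the mouse left out, from -0.06 to 0.05.

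Fcer2a was the most variable member. It measured 153, 162, 121, 94 and 96.4 FPKM in the MWA mice and 150.3, 162, 158, 119.8 and 46.2 FPKM in the MWA+2DG mice. One library, the MWA+2DG replicate 5, was under all 9 others, and the remaining MWA+2DG values lay within the MWA range. The log2 fold change of -0.07 had a 95% interval of -0.79 to 0.65 (exact permutation p = 0.897), and without that library it was 0.26 (limma P = 0.178, adjusted p = 0.935). Cr2 measured 65.7, 77.3, 57.1, 53.8 and 37.2 FPKM in the MWA mice and 67, 67.1, 46.7, 48.4 and 37.3 FPKM in the MWA+2DG mice. The groups overlapped throughout, with a log2 fold change of -0.12 (95% interval -0.58 to 0.34, exact permutation p = 0.651).

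Cr2 was split by replicate set instead. In both groups replicates 1 and 2 (65.7 to 77.3 FPKM) lay above replicates 3 to 5 (37.2 to 57.1 FPKM), with no overlap, and no other member was divided in that way. The labels name no batch for these replicate sets, and the division was taken from values of these data. In limma 488 of 13334 tested genes differed between the sets at an adjusted p under 0.05. That count cannot test a division taken from the same data. The liver transcript Alb was 0 to 0.05 FPKM in the first set and 35.1 to 102 FPKM in the second. The summed FPKM of 10 markers of follicular dendritic cells, a list that includes genes shared with B cells, was 1110.4 to 1347 in replicates 1 and 2 and 897 to 993 in replicates 3 to 5. The part of these cells in the Cr2 values was not tested. Within the sets the Cr2 log2 difference between treatments was -0.09 and -0.14, and that of Fcer2a was -0.01 and -0.11. The follicular dendritic cell sum did not separate the treatments, at 898 to 1347 in the MWA group and 897 to 1281 in the MWA+2DG group, and 0 of its 9 tested genes was called in either direction.

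The transcription factors differed by less than the spread between mice. Pax5 measured 33.6, 37.6, 36.6, 37.4 and 20.5 FPKM in the MWA group and 29.7, 32.9, 32.9, 31.7 and 28.6 FPKM in the MWA+2DG group. The 5 MWA+2DG values were all above the low MWA replicate 5 and below the other 4 MWA values. The log2 fold change was therefore -0.06 with all mice (95% interval -0.39 to 0.28, exact permutation p = 0.817) and -0.21 without that replicate (limma P = 0.0113, adjusted p = 1.0), which is short of the fold change that the rule of the study asks for. Ebf1 was 6.6 ± 1.22 FPKM in the MWA group and 6.26 ± 0.602 FPKM in the MWA+2DG group (SD, n = 5 each), a log2 fold change of -0.06 (95% interval -0.31 to 0.20, exact permutation p = 0.635). Spib was 137 ± 17.6 FPKM in the MWA group and 123 ± 12.6 FPKM in the MWA+2DG group, a log2 fold change of -0.15 (95% interval -0.39 to 0.08, exact permutation p = 0.206), and all 5 MWA+2DG values lay below the MWA mean. For the other cells that use these factors, the 9 plasmacytoid dendritic cell markers summed to 124 to 375 FPKM in the MWA group and 118 to 903 FPKM in the MWA+2DG group, and the 10 fibroblastic stroma markers to 222 to 250.4 and 159.9 to 294 FPKM, with no gene of either list called. The part of these cells in the Spib and Ebf1 values was not tested.

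**Figure D2:**
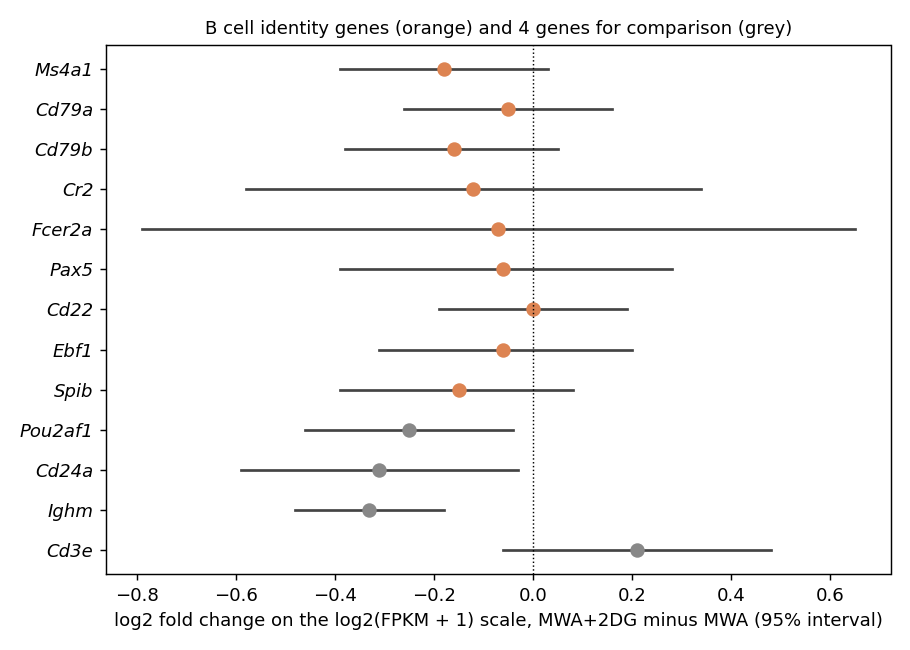
Log2 fold change of each B cell identity gene (orange) and of Pou2af1, Cd24a, Ighm and Cd3e (grey), MWA+2DG minus MWA, on log2(FPKM + 1), with 95% intervals as lines from limma (n = 5 per group). The intervals of all 9 members include 0, and Fcer2a has the widest, from -0.79 to 0.65. After rescaling libraries to 1 total, which is not drawn, the log2 fold change was above 0 for 4 members.

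The members also varied among the mice of each group. After centring each gene on its mean, 1 common profile over the 10 mice took 32.7% of the variance of the 9 members. The profile is the mean of these same 9 genes, so it takes a part of their variance even if they are unrelated. The MWA replicate 2 was above the mean for all 9 members and held the highest value of Ms4a1, Cr2, Fcer2a, Pax5, Cd22 and Spib. The MWA+2DG replicate 5 was above the mean for 1 member, and Ms4a1, Fcer2a and Spib were lowest there. In the MWA replicate 5 the list came apart: Cd79a and Cd79b were at their highest of the 10 mice while Cr2, Pax5, Cd22 and Ebf1 were at their lowest. The reverse held for the receptor chains in the MWA+2DG replicate 1, where Cd79a and Cd79b were at their lowest and 5 members were above their mean.

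**Figure D3:**
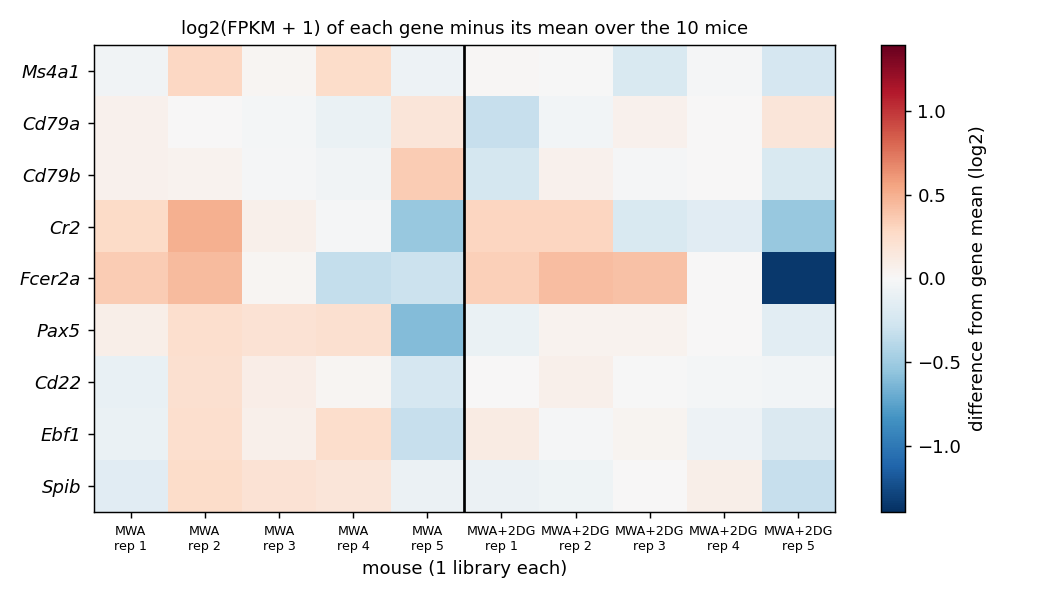
Difference of log2(FPKM + 1) from the mean of the gene over the 10 mice (color, red above and blue below), for the 9 members (rows) in each mouse (columns). The column of MWA replicate 2 is above the mean for all 9 members, and Cd79a and Cd79b go against Cr2, Pax5, Cd22 and Ebf1 in MWA replicate 5.

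The genes whose profile lay nearest to the mean profile of the 9 members were Recql5, Haus1, Pxk, Strbp and Swap70. Their root mean square difference from it over the 10 mice was 0.0373 for Recql5, 0.04 for Haus1, 0.0499 for Pxk, 0.0527 for Strbp and 0.0547 for Swap70, in log2 units. The members themselves were farther from their own mean, from 0.102 for Cd22 to 0.417 for Fcer2a. The 5 genes were picked for the smallest distances, so this comparison cannot show how alike the members are. Recql5 is a DNA helicase, Haus1 a subunit of the augmin complex of the spindle, and Swap70 a signalling protein that is abundant in B cells. None of the 5 was called between the groups.

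The ratio to Cd3e, a chain of the T cell receptor complex, sets the B cell genes against the T cell content of the same library. Cd3e itself was 35.7, 29.6, 26, 24.2 and 28.4 FPKM in the MWA mice and 38.8, 36.2, 33.1, 33 and 26.4 FPKM in the MWA+2DG mice. It was higher than the MWA mean in 4 of the 5 MWA+2DG mice and the groups overlapped, with a log2 fold change of 0.21 that did not pass (95% interval -0.06 to 0.48, exact permutation p = 0.127). Cd3e was higher by the rule of the study after rescaling libraries to 1 total (0.28) and without MWA replicate 1 or MWA+2DG replicate 5 (0.29 each), with limma adjusted p of 0.862, 0.893 and 0.935. The ratio was lower in the MWA+2DG group for all 9 members, with log2 differences of -0.40 for Ms4a1 to -0.22 for Cd22 and a median of -0.29. The same ratio was lower for 92.1% of all 13264 genes that were above 0 in every library, with a median of -0.21, and 28.4% of them had a lower difference than the median member. The lower ratio was thus shared with most other genes.

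The ratio of Ms4a1 to Cd3e was 2.63, 4.03, 3.82, 4.8 and 3.27 in the MWA mice and 2.54, 2.68, 2.54, 2.91 and 3.13 in the MWA+2DG mice. All 5 MWA+2DG ratios were below the MWA mean, 2 were below every MWA ratio, and the log2 difference of -0.40 had an exact permutation p of 0.0397. The ratio of Cd79b to Cd3e was 12.9, 15.5, 16.9, 17.7 and 19.9 in the MWA mice and 9.6, 12.8, 13.2, 13.5 and 14.5 in the MWA+2DG mice. The log2 difference was -0.38 (exact permutation p = 0.0317), again with 2 MWA+2DG ratios below every MWA ratio. These 2 of 9 members stand beside a background in which 17.8% of genes had a lower ratio at an exact p below 0.05. By the rule of the study in limma, Ms4a1, Cd79b and Spib (3 of 9) had a lower ratio, beside 18.7% of genes. No gene passed an adjusted p of 0.05 for the ratio (0%, smallest adjusted p 0.239), with 2590 genes and 3 members at an unadjusted P below 0.05.

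The calls on Ms4a1 and Cd79b depended on the reference gene. With Cd3d, Cd3g or Lck (other T cell receptor chains and the kinase that serves them) in place of Cd3e, 0 of the 9 members passed at an exact p below 0.05, and the log2 differences were -0.32, -0.32 and -0.25 for Ms4a1 and -0.30, -0.30 and -0.23 for Cd79b. Their exact permutation p was 0.286, 0.206 and 0.214 for Ms4a1 and 0.175, 0.167 and 0.119 for Cd79b. With Cd3e, 0 members passed without MWA replicate 2, 3 or 4 or without MWA+2DG replicate 1, 1 passed without MWA+2DG replicate 2 or 3, and 3 passed without MWA replicate 1. Other members gained a call in some of these runs. Spib passed without MWA replicate 1 (-0.52, exact permutation p = 0.00794) and Cr2 without MWA replicate 5 (-0.49, exact permutation p = 0.0238). Cd79a passed without MWA+2DG replicate 5 (-0.40, exact permutation p = 0.0317). The log2 fold change of Cd3e itself was 0.29 without MWA replicate 1 or MWA+2DG replicate 5 and 0.21 without MWA replicate 5. The share of all genes with a lower ratio, 17.8% with all mice and Cd3e, is not given for these runs or the other reference genes. The member counts of these runs therefore have no background beside them and are not read as results about the members. Where Ms4a1 or Cd79b lost its call to Cd3e with 1 mouse left out, the log2 difference was -0.39 to -0.30 for Ms4a1 and -0.40 to -0.29 for Cd79b. The exact permutation p in those runs was 0.0556 to 0.0794. Within replicates 1 and 2 the ratio differed by -0.32 for Ms4a1 and -0.35 for Cd79b, and within replicates 3 to 5 by -0.46 and -0.40. Of the remaining members with all mice kept, Spib had a log2 ratio difference of -0.37 (exact permutation p = 0.0714) and Cr2 of -0.34 (p = 0.127, exact). Fcer2a, Pax5, Ebf1, Cd79a and Cd22 lay between -0.29 and -0.22, with exact permutation p from 0.167 to 0.397.

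**Figure D4:**
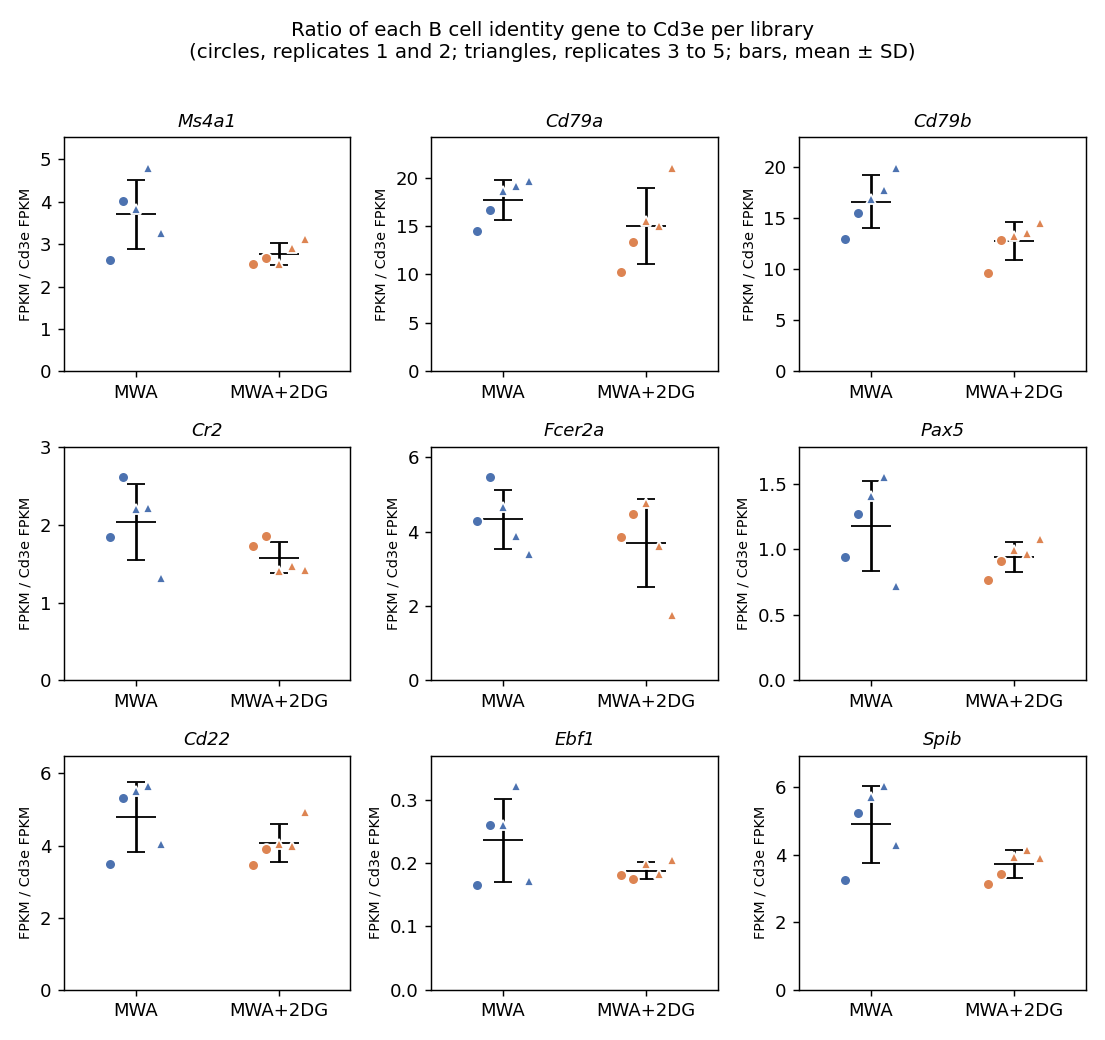
Ratio of the FPKM of each B cell identity gene to the FPKM of Cd3e (y axis, linear from 0) per library, with the mean ± SD of each group (n = 5). The ratio of Ms4a1 spans 2.63 to 4.8 in the MWA group and 2.54 to 3.13 in the MWA+2DG group, and the groups overlap for all 9 genes.

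**Figure D5:**
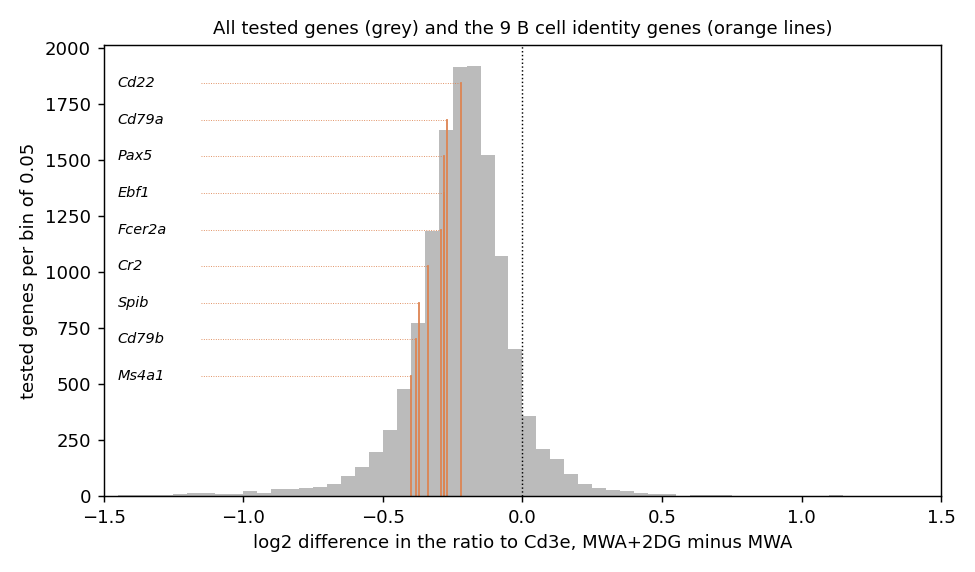
Number of tested genes (y axis, bins of 0.05) by their log2 difference in the ratio to Cd3e, MWA+2DG minus MWA (x axis), with orange lines at the 9 members. The members lie from -0.40 to -0.22, within the body of a distribution whose median is -0.21.

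The members have partners in the B cell programme, and 5 lists of such genes were read in the same fit. Of 65 tested genes, 46 (70.8%) had a log2 fold change below 0, the median was -0.07 as for the members, and 0 passed an adjusted p of 0.05. By the rule of the study 3 were lower (4.62%, against 1.87% of all genes) and 0 were higher: Pou2af1, Cd24a and Ighm. After rescaling to 1 total or under quantile normalization 1 was lower and 1 was higher, without MWA+2DG replicate 5 it was 1 lower, and without MWA replicate 1 or MWA+2DG replicate 2 it was 5. The B cell receptor signalling list had 12 of 20 genes below 0 and none called, with log2 fold changes of -0.18 for the adaptor Blnk (limma adjusted p = 0.995, exact permutation p = 0.0317), -0.16 for Plcg2, the phospholipase that turns the signal into calcium release, and 0.16 for Vav3, a guanine nucleotide exchange factor. The transcription factor list had 9 of 15 below 0. Pou2af1, the octamer coactivator of B cells, was lower by the rule, from 233 ± 28 FPKM to 195 ± 13 FPKM (SD, n = 5 each, log2 fold change -0.25, limma adjusted p = 0.995, exact permutation p = 0.0317), while Zfp318, needed for IgD expression, and the quiescence factor Klf2 had values of 0.26 and 0.23 and did not pass. The calls on these factors turned with the setting. Pou2af1 was no longer called after rescaling (-0.19), under quantile normalization (-0.18), or without any 1 of MWA replicates 2, 3 and 4 and MWA+2DG replicates 1, 3 and 5 (-0.24 to -0.21). Zfp318 was called higher after rescaling (0.34), under quantile normalization and median ratio scaling and with the replicate set as a term (0.26 each), and without MWA replicate 2 (0.34). The medians of the signalling and the factor lists, both -0.04, were 0.02 after rescaling.

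Of the 20 surface and antigen presentation genes, 17 were below 0. Cd24a, a glycoprotein of young and naive B cells, was lower by the rule, at 103 ± 11.2 FPKM in the MWA group and 83.2 ± 13.5 FPKM in the MWA+2DG group (SD, n = 5 each, log2 fold change -0.31, limma adjusted p = 0.995, exact permutation p = 0.0159), and it was not called after rescaling (-0.25), under quantile normalization (-0.23), or without MWA replicate 2 (-0.28), MWA replicate 4 (-0.26) or MWA+2DG replicate 5 (-0.19). The activation marker Cd83 and the costimulatory receptor Cd40 had values of -0.42 and -0.16 that did not pass, although Cd83 was called lower under median ratio scaling, with the replicate set as a term (-0.42 each), and without MWA replicate 4 (-0.50) or MWA+2DG replicate 2 (-0.52). In the BAFF and APRIL axis, the survival signals of B cells, 3 of 4 tested genes were below 0 and none was called. The APRIL gene Tnfsf13 had a log2 fold change of -0.35 (called lower without MWA replicate 1, at -0.46, or MWA+2DG replicate 2, at -0.45), its receptor Tnfrsf13b (TACI) of -0.09 and the BAFF receptor Tnfrsf13c of -0.10, the last with a sign that depended on the mouse left out (-0.23 to 0.13).

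Ighm, the heavy chain of IgM that Cd79a and Cd79b escort to the surface, was the gene of these lists with the smallest P. It measured 1024, 1014, 992, 991 and 1164 FPKM in the MWA mice and 849, 776, 836, 833 and 828 FPKM in the MWA+2DG mice. Every MWA+2DG library was below every MWA library, which also held for 0.51% of all 13334 tested genes. The log2 fold change was -0.33 ± 0.07 (SE, 95% interval -0.48 to -0.18, limma P = 0.000472, adjusted p = 0.995), and the exact permutation p of 0.00794 was the smallest that 5 against 5 can give. It was -0.33 within both replicate sets and -0.27 after rescaling to 1 total. Igkc and Iglc3, light chain constant genes, had log2 fold changes of -0.62 and -0.16 that did not pass, and Igkc ran from 2665 to 10878 FPKM over the 10 mice. Igkc differed by 0.34 within replicates 1 and 2 and by -1.26 within replicates 3 to 5, was at -0.23 under quantile normalization, and was called lower without MWA replicate 1 or 2 (-0.83 each). IgM transcripts come from plasma cells as well as naive B cells. All 9 tested plasma cell markers were below 0, and 2 of them (Xbp1 and Mzb1) were lower by the rule, beside 1.87% of all tested genes. The 10 listed plasma cell markers summed to 369 to 909 FPKM in the MWA group and 279.8 to 584 FPKM in the MWA+2DG group. Their part in the Ighm values was not tested.

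The ratio of Ighm to the receptor chains and to other B cell genes was examined after these values had been seen, in 4 ratios. Ighm to Cd79a was 2.06 ± 0.0575 in the MWA group and 1.72 ± 0.253 in the MWA+2DG group (SD, n = 5 each, log2 difference -0.28, exact permutation p = 0.0476, adjusted over the 4 ratios 0.0952). Ighm to Ighd, the IgD heavy chain made from the same locus, differed by -0.48 (exact permutation p = 0.0238, adjusted 0.0952). The log2 difference was -0.17 for Ighm to Cd79b (exact permutation p = 0.0873, adjusted 0.116) and -0.15 for Ighm to Ms4a1 (exact permutation p = 0.302, adjusted 0.302). None of the 4 ratios passed after adjustment.

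Other cell types were read from marker lists for comparison with the 9 members. These lists were chosen with earlier results of these data known, and their calls are given for the main fit only. No gene of them passed an adjusted p of 0.05. By the rule 1.87% of all tested genes were lower and 0.952% were higher. The germinal centre list, genes of B cells that divide and mutate their receptors, had 10 of 10 below 0 and 8 lower by the rule, with a median log2 fold change of -0.54, and its summed FPKM was 201 to 334 in the MWA group and 134 to 213 in the MWA+2DG group. The T cell list had 16 of 16 above 0 and 3 higher by the rule, with a median of 0.18 and sums of 521 to 816 and 572 to 812 FPKM. The difference between these lists and the 9 members was not tested, and the part of T cells and germinal centre cells in the ratios was not tested. In the remaining lists 2 of 6 tested neutrophil genes (S100a8 and S100a9) and 1 of 9 tested macrophage genes (Csf1r) were lower by the rule, with sums of 26 to 101 and 14 to 27.4 FPKM for neutrophils and of 198 to 295 and 176 to 240 FPKM for macrophages in the MWA and MWA+2DG groups. No gene of endothelium, NK cells, tumor epithelium, adipose tissue or liver was called. All 4 tested adipose genes were above 0 (median 0.89), with sums of 4.53 to 18.1 FPKM in the MWA group and 5.06 to 93.9 FPKM in the MWA+2DG group. All 7 tested liver genes were below 0 (median -0.32), with sums of 22 to 186 and 22.7 to 139 FPKM. Of the endothelial genes 8 of 9 were below 0 (median -0.02), and NK cells and tumor epithelium were evenly divided. No listed gene was at 0 in all libraries, and the epithelial genes Krt8, Krt14, Krt5, Cdh1 and Cldn4 averaged below 1 FPKM.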

How the data were processed

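Bulk RNA-seq of TDLNs was available for 10 mice, grouped as MWA (n = 5) and MWA+2DG (n = 5) by the sample labels. The authors deposited FPKM values per gene, 1 table per library. Their methods name fastp, HISAT2, StringTie and ballgown, and the submitters' processing notes name cutadapt 1.9, HISAT2 2.0.4, UMI-tools, StringTie 1.3.4d and mm9. FPKM holds no read counts, so sequencing depth and counting error are unknown, and the number of mice limits precision. Summed FPKM ran from 312143 to 359984.

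Symbols were found for 33541 of 33643 Ensembl identifiers, and values of 57 shared symbols were summed. Of these genes, 13334 averaged 1 FPKM or more and entered the test. limma 3.58.1 (lmFit and eBayes, without covariates, R 4.3.3) was fitted to log2(FPKM + 1), with Benjamini-Hochberg adjustment over all of them. The pseudocount and filter were chosen here, and fold changes of low genes are understated. Single genes and ratios were tested by two-sided exact permutation in Python 3.11.15. The fit was tested on simulated data with independent noise and planted changes larger than the fold changes of the members. That test does not show whether changes of the members' size would be found. The 9 members and the gene lists were chosen with earlier results of these data known. Other named genes were the 3 of smallest P in each of 5 B cell lists and the 5 nearest to the mean member profile. Genes of the other lists were named after their values had been seen, as the Ighm ratios and within-set values were chosen. The results of some genes that were selected are not reported here. Alternatives were a pseudocount of 0.1, no filter or 5 FPKM, 3 scalings, limma-trend, the replicate number or replicate set as a term, other reference genes and leaving out each mouse.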

Additional observations from a re-analysis of the deposited data

Results flagged for a closer look

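Of 78 groups of 5 mice tested for a mouse far from the others, 4 held one, and chance gives about 1 in 20. In the MWA group, replicate 5 stood apart for Cd79b, at 567 FPKM against 429 to 460.5 FPKM in the other 4 mice. The same mouse was low for Pax5, at 20.5 FPKM against 33.6 to 37.6 FPKM. It was also the highest for Ighm, at 1164 FPKM against 991 to 1024 FPKM. In the MWA+2DG group, replicate 5 was low for Cd24a, at 59.2 FPKM against 87 to 91.5 FPKM.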

How the results depend on the processing

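The median log2 fold change of the 9 members stayed below 0 under each alternative run, and 0 members were called between the groups under any of them. Rescaling each library to 1000000 left 1 gene of the wider B cell lists lower and 1 higher, gave medians of 0.02 for the signalling and for the transcription factor list, and turned Cd79a (0.01), Pax5 (0.01), Cd22 (0.06), Ebf1 (0.00065) and Pxk (0.02) above 0. Over all tested genes it called 159 lower and 328 higher in place of 249 and 127. Quantile normalization left 1 lower and 1 higher in the wider lists, with 0.01 for the signalling list, 0.04 for Cd79a, 0.02 for Fcer2a, 0.09 for Cd22 and 0.01 for Pxk. Median ratio scaling and the replicate set as a term each gave 1 higher. A filter of 5 FPKM called 161 lower and 69 higher over all tested genes, of which fewer were tested. The cause of the other shifts was not tested.

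Leaving out 1 mouse at a time, the wider lists had 1 to 5 genes lower and 0 to 1 higher, and all tested genes 177 to 315 lower and 80 to 222 higher, with the fewest lower (177) and the most higher (222) without MWA+2DG replicate 5 and the fewest higher (80) without MWA replicate 5. The members with a lower ratio to Cd3e at an exact p below 0.05 numbered 0 to 3, and the share of all genes in these runs is not given. Ranges that crossed 0 were -0.10 to 0.02 for Cd79a, -0.06 to 0.05 for Cd22, -0.19 to 0.26 for Fcer2a, -0.23 to 0.13 for Tnfrsf13c, -0.12 to 0.0048 for Haus1, -0.08 to 0.02 for Pxk and -0.09 to 0.0 for the transcription factor list. With Cd3d, Cd3g or Lck as the reference 0 members passed.

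The replicate numbers were not taken as pairs, since the deviations of same-numbered mice correlated at 0.33, 0.50, 0.11, 0.03 and 0.15 and 2 of 5 MWA+2DG mice correlated best with the MWA mouse of their number. With the replicate block, 5 in place of 3 members had a lower ratio to Cd3e by the rule of the study in limma, beside 3531 in place of 2499 of all tested genes, and the member median between groups was -0.07. A sign-flip test within numbers was not run, since 5 pairs cannot reach a two-sided p of 0.05. FPKM gives no depth, so no limit from counting can be stated.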
